A study of Mus musculus with 12 samples.

Results

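The genes described here are 8 factors that bind or cut inflammatory messenger RNAs in macrophages: Zfp36, Zfp36l1, Zfp36l2, Zc3h12a, Zc3h12c, Rc3h1, Rc3h2 and N4bp1. They were chosen by name, and all 8 were found among the 12483 genes of the deposited count table and among the 12231 genes that passed the filter on low counts. RNA was sequenced from 12 libraries of RAW264.7, a mouse macrophage line. The cells had received CRISPR constructs against the flanks of an element called NRE1, were selected by GFP and puromycin resistance, and were grown from single cells. KO groups hold clones 1A, 1B and 2, in which the element is deleted, and WT groups hold wild-type clones 1, 2 and 3. The labels do not say whether the WT clones came through the same selection. Each clone gave 1 library in medium and 1 after 6 h of LPS (10 ng/mL) plus IFN-gamma (50 ng/mL), so the 4 groups hold 3 libraries each. LPS, from the outer membrane of Gram-negative bacteria, acts through Toll-like receptor signalling, and IFN-gamma is a cytokine of lymphocytes. What NRE1 stands for is not said in the labels, and no gene in the table bears the name, so the deletion could not be read from a targeted gene.

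Inflammatory mRNAs are short-lived because sequence and stem-loop elements in their 3′ untranslated regions recruit decay factors. Zfp36 (tristetraprolin) and its relatives Zfp36l1 and Zfp36l2 are zinc finger proteins that bind AU-rich elements and bring in the CCR4-NOT deadenylase. Zc3h12a (Regnase-1) is an endoribonuclease that cuts stem-loop containing transcripts such as Il6 mRNA, and Zc3h12c (Regnase-3) is its relative. Rc3h1 and Rc3h2 (Roquin-1 and Roquin-2) bind stem-loops in Tnf and other mRNAs, and N4bp1 is a further endoribonuclease of the same fold family that restrains cytokine output of macrophages. Several of these factors are themselves induced by the signals whose products they limit.

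The AU-rich nonamer TTATTTATT, a preferred binding motif of the ZFP36 family, stands in the 3′ untranslated region of 5 of the 8 genes. It was searched on the transcript strand only, and 7.46% of 10672 tested protein-coding genes hold it. The 5 regions run from 774 bases in Zfp36 to 7181 bases in Rc3h1, against a median of 1001 bases over these genes. A longer region has more places for a nonamer, and length was not allowed for in this share. The sites are shown because they place the mRNAs of the ZFP36 family beside Tnf, the best known target of the family. Each is a stretch of 30 bases around the first nonamer of the principal GENCODE M21 transcript (GRCm38), 5′ to 3′ on the transcript strand, written as DNA with the nonamer in capitals. The Zfp36 site lies at chr7:28376950-28376979, that of Zfp36l1 at chr12:80108166-80108195, that of Zfp36l2 at chr17:84184913-84184942, that of Rc3h1 at chr1:160970043-160970072 and that of Rc3h2 at chr2:37373286-37373315. The site in Tnf lies at chr17:35199688-35199717. The Rc3h1 site is on the plus strand and the others are on the minus strand.
Zfp36: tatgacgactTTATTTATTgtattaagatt
Zfp36l1: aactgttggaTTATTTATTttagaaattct
Zfp36l2: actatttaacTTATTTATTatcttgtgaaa
Rc3h1: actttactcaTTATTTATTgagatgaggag
Rc3h2: caaagacattTTATTTATTttactctgtaa
Tnf: tttgcacttaTTATTTATTatttatttatt

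Each of the 5 genes holds 1 nonamer, and Tnf holds 5. No nonamer was found in the 3′ untranslated regions of Zc3h12a, Zc3h12c and N4bp1. The shorter core ATTTA occurs in all 8, at 0.85 per kb in N4bp1 and between 2.74 per kb in Zfp36l2 and 4.90 per kb in Zfp36l1, against 10.47 per kb in Tnf and a median of 1.29 per kb over the tested genes.

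Total counts per library ran from 10624591 to 14388590. KO clones 1A and 1B stood closer to each other (median absolute log2 ratio over genes 0.08 and 0.081) than either stood to KO 2 (0.147 to 0.18) or than WT clones stood to each other (0.174 to 0.257). Whether they stem from a single founder cell was not tested, and values with their counts summed are given where the call changes. KO and WT clones also differed elsewhere, since 4 of 5 tested Y-linked genes were called lower in KO clones in medium. All 10 macrophage markers were in the table, with summed levels of 4730 to 19790 CPM per library (CPM being counts scaled to a common library size). Of the markers of T or NK cells, B cells, neutrophils, fibroblasts and epithelium only S100a8 was in the table, at no more than 2.84 CPM.

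LPS with IFN-gamma raised 6 of the 8 genes in WT clones and the same 6 in KO clones. Differential expression was tested with edgeR's quasi-likelihood fit over all tested genes, with calls made under a Benjamini-Hochberg adjusted p of 0.05, and fold changes are given on the log2 scale with their SE. Zfp36, Zc3h12c and Zc3h12a rose most, and Rc3h2, N4bp1 and Rc3h1 rose by less than a factor of 2. Zfp36l2 fell in KO clones and was not called in WT clones, and Zfp36l1 was called in neither genotype. In WT clones 47.4% of all genes were called, 23.8% higher, and in KO clones 54.3%, 26.7% higher and 27.6% lower. Each of the 6 genes that rose had every stimulated library above every library in medium in both genotypes, as had 25.2% of all genes in WT and 34.1% in KO clones. A fall without overlap was seen for 25.2% and 35.9% of all genes. The median over the 8 genes was 0.74 in WT and 0.73 in KO clones, against -0.01 and -0.01 over all genes tested. In these cultures a change in RNA per cell and a change in the share of responding cells cannot be told apart.

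**Figure D1:**
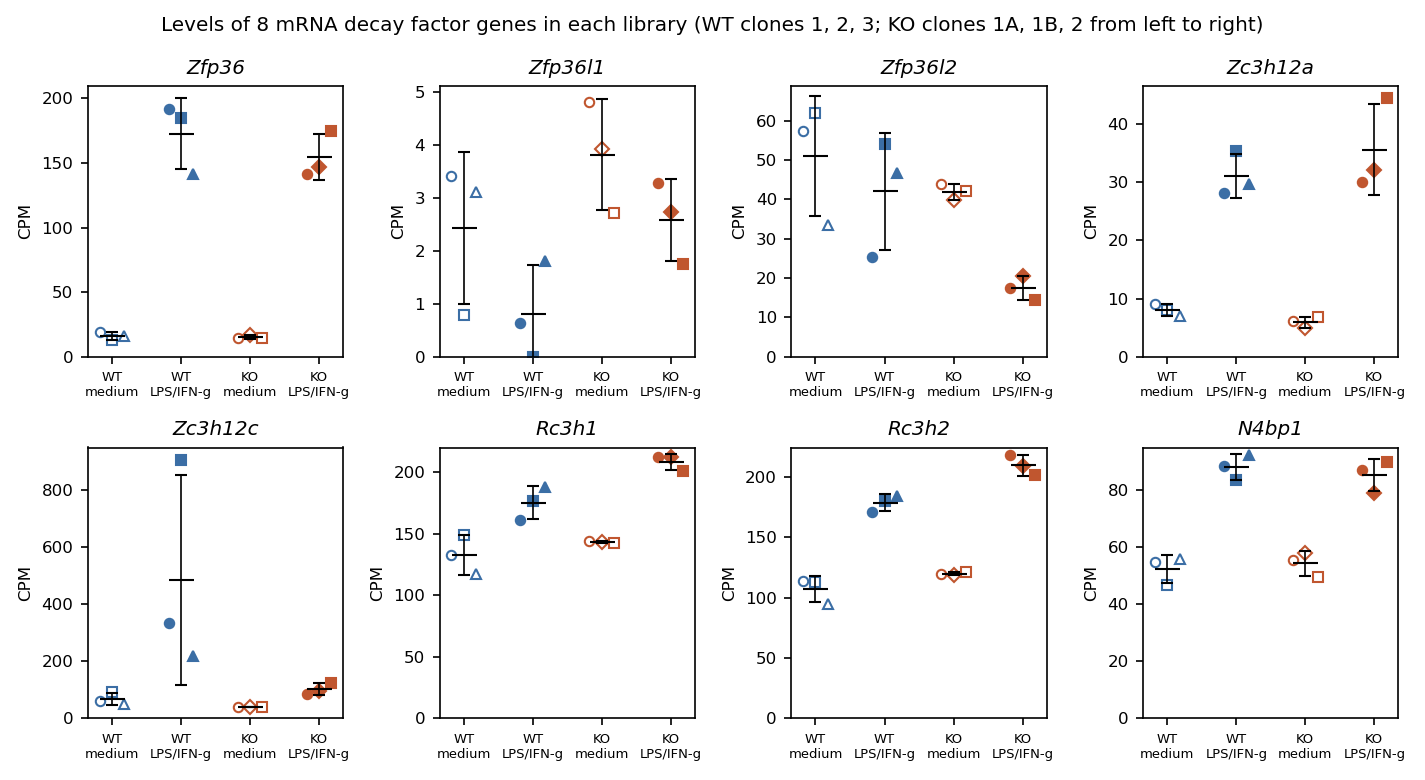
CPM of each of the 8 genes in every library, by genotype and condition (WT in blue, KO in orange, open for medium, filled for LPS/IFN-gamma). Points run from clone 1 to 3 or from 1A to 2, and the bar and whiskers give mean ± SD over 3 libraries. Zfp36 and Zc3h12a separate by treatment in both genotypes, while stimulated Zc3h12c spreads from 217 to 906 CPM in WT clones and from 86.5 to 126 CPM in KO clones.

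Zfp36 (ENSMUSG00000044786; chromosome 7, 28376784 to 28380253, minus strand) showed the highest fold change of the 8 in both genotypes. It stood at 19.3, 12.8 and 16.5 CPM in medium in WT clones 1, 2 and 3, and at 192, 185 and 141 CPM under stimulation. In KO clones 1A, 1B and 2 it stood at 14.6, 17.2 and 14.2 CPM in medium and at 142, 147 and 175 CPM under stimulation. Every stimulated library lay far above every library in medium, and the genotypes overlapped in both conditions. The log2 fold change was 3.42 ± 0.18 in WT (edgeR adjusted p = 3.2e-07) and 3.33 ± 0.18 in KO clones (adjusted p = 3.5e-07). By clone the rise ranged from 8.52-fold in KO 1B to 14.5-fold in WT 2.

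The 250 bases before the RefSeq start of Zfp36 (GRCm38.p6, chr7:28379229-28379478, minus strand) are shown because this gene rose most. They were searched on both strands for 2 forms of the NF-kB site (GGGAA and CC 3 bases apart, and GGG and TTTCC 2 bases apart), the GAS element (TTCNNNGAA), the ISRE (GAAA and GAAA 2 bases apart), AP-1 (TGANTCA), CRE (TGACGTCA) and the TATA box (TATAAA). The only match, in capitals, is a GAS element that begins 17 bases before the start.
Zfp36: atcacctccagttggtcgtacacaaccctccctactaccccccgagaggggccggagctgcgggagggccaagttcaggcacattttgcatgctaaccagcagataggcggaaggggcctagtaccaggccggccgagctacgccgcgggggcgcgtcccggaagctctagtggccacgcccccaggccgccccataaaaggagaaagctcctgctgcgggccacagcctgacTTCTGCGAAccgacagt

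Of 32851 promoter windows of this length 7.02% hold the GAS letters. RefSeq windows were found for 7 of the 8 genes, 8 windows in all, and Zfp36l2 was not among them. Rc3h1 and Zfp36l1 each hold an AP-1 match (6.75% of all windows), which begins 133 and 129 bases before the start, and Zfp36l1 holds a TATA box (12.4%). None of the 8 windows holds either NF-kB form (4.94% and 1.41% of all windows), an ISRE (2.98%) or a CRE (1.55%). These are letter matches in a short window and not measured sites.

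Zfp36l2 (ENSMUSG00000045817; chromosome 17, 84183931 to 84187947, minus strand) moved the other way in KO clones. It stood at 43.8, 39.8 and 42.1 CPM in medium in KO 1A, 1B and 2 and at 17.5, 20.6 and 14.3 CPM under stimulation, with no overlap. The fall was -1.26 ± 0.29 on the log2 scale (edgeR adjusted p = 0.0037). In WT clones 1, 2 and 3 it stood at 57.3, 62.0 and 33.6 CPM in medium and at 25.5, 53.9 and 46.6 CPM under stimulation. The WT clones did not move together, since clone 1 went down, clone 2 moved little and clone 3 went up 1.39-fold. The WT value was -0.28 ± 0.28 (adjusted p = 0.44), and without WT clone 1 it turned to 0.07 (adjusted p = 0.85).

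Zfp36l1 (ENSMUSG00000021127; chromosome 12, 80107754 to 80113013, minus strand) was scarce, at 0 to 64 counts per library. It stood at 3.40, 0.783 and 3.11 CPM in medium and at 0.639, 0 and 1.80 CPM under stimulation in WT clones 1, 2 and 3. The library with 0 counts allows a level of up to 0.304 CPM. In KO clones it stood at 4.80, 3.92 and 2.71 CPM in medium and at 3.27, 2.74 and 1.75 CPM under stimulation. The stimulated library of each clone lay below its library in medium, but the groups overlapped. Its log2 fold change was -1.56 ± 0.80 in WT clones (edgeR adjusted p = 0.13). With the clone entered as a replicate block it was called, at -1.63 (adjusted p = 0.0082). In KO clones it was -0.56 ± 0.72 (adjusted p = 0.53). Without WT clone 2 the WT value was -1.44 (adjusted p = 0.039). Of its exon bases, 55.9% lie opposite exons of the antisense gene Gm26669, and whether counting used strand is not given in the sources used here, so part of these counts may come from either strand.

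Zc3h12a (ENSMUSG00000042677; chromosome 4, 125118423 to 125127840, minus strand), the gene of Regnase-1, stood at 9.13, 8.07 and 6.97 CPM in medium in WT clones 1, 2 and 3. Under stimulation it stood at 28.1, 35.3 and 29.6 CPM. In KO clones 1A, 1B and 2 it went from 6.07, 4.87 and 6.82 CPM to 30.1, 32.1 and 44.5 CPM. All stimulated libraries lay above all libraries in medium. In medium the highest KO library stood just below the lowest WT library, and under stimulation the genotypes overlapped. On the log2 scale the rise was 1.94 ± 0.19 in WT (edgeR adjusted p = 2.2e-05) and 2.59 ± 0.20 in KO clones (adjusted p = 2.9e-06).

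Zc3h12c (ENSMUSG00000035164; chromosome 9, 52111344 to 52168572, minus strand), the gene of Regnase-3, varied most between WT clones among the genes that rose. It stood at 61.5, 90.8 and 50.1 CPM in medium in WT clones 1, 2 and 3 and at 332, 906 and 217 CPM under stimulation. In KO clones 1A, 1B and 2 it stood at 38.7, 39.5 and 40.2 CPM in medium and at 86.5, 96.9 and 126 CPM under stimulation. In both conditions every KO library lay below every WT library, and WT clone 2 was the highest. The clones rose 5.41-fold, 9.98-fold and 4.34-fold in WT and 2.24-fold, 2.45-fold and 3.12-fold in KO, so that the lowest WT rise exceeded the highest KO rise. Zc3h12a was split the other way, at 4.95-fold to 6.59-fold in KO and 3.08-fold to 4.37-fold in WT clones. So was the scarce Zfp36l1, at 0.645 to 0.698 of its level in medium in KO and 0 to 0.58 in WT clones. The share of all genes split in this way was not counted.

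The log2 fold change of Zc3h12c was 2.85 ± 0.47 in WT (edgeR adjusted p = 0.0007) and 1.38 ± 0.45 in KO clones (adjusted p = 0.024). The KO call was lost without KO 1A (adjusted p = 0.087), without KO 1B (0.097) and without KO 2 (0.13). It was also lost with 1A and 1B summed (0.088) and with library totals in place of TMM factors (log2 fold change 1.00, adjusted p = 0.069). Without WT clone 2 the WT value was 2.28 (adjusted p = 8e-05) and the KO call was stronger (adjusted p = 0.00018).

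**Figure D2:**
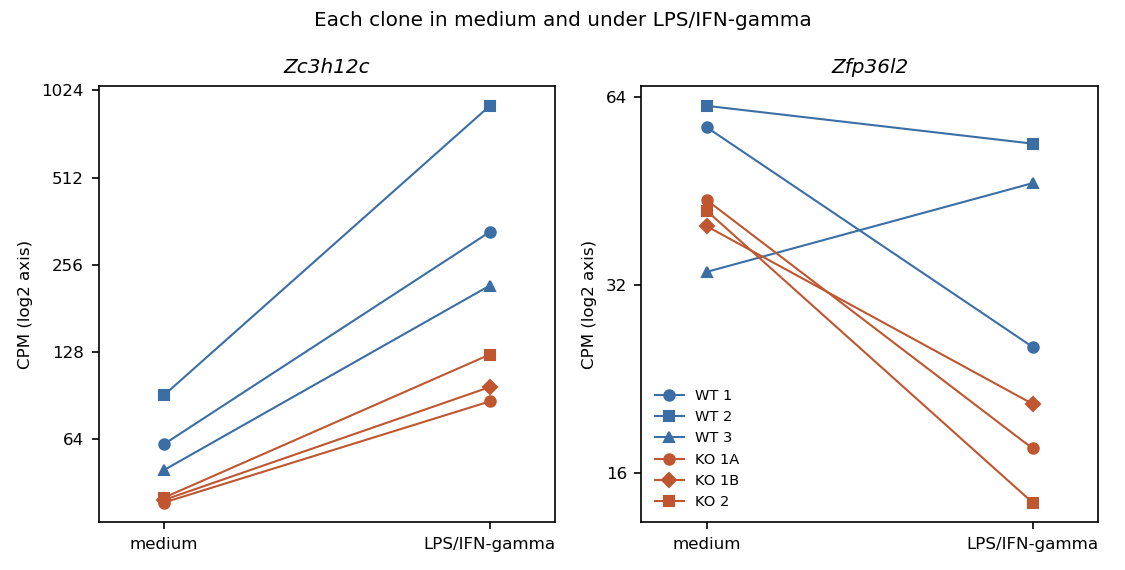
CPM of Zc3h12c and Zfp36l2 on a log2 axis, with a line for each clone from medium to LPS/IFN-gamma (WT in blue, KO in orange). All 6 clones rise for Zc3h12c, the WT clones to 217 CPM or more and the KO clones to 126 CPM or less. For Zfp36l2 the KO clones fall together to between 14.3 and 20.6 CPM while the WT clones diverge.

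The Roquin genes and N4bp1 made smaller and more even moves. Rc3h1 (ENSMUSG00000040423; chromosome 1, 160906418 to 160974978, plus strand) stood at 133, 149 and 117 CPM in medium and at 161, 176 and 188 CPM under stimulation in WT clones 1, 2 and 3. In KO clones it stood at 144, 143 and 142 CPM in medium and at 213, 212 and 201 CPM under stimulation. The treatment groups did not overlap in either genotype. The log2 fold change was 0.40 ± 0.10 in WT (edgeR adjusted p = 0.0072) and 0.54 ± 0.10 in KO clones (adjusted p = 0.00093). These calls depend on the scaling. Library totals alone shifted the median of all genes to -0.37 in WT and -0.39 in KO clones, and gave Rc3h1 0.04 (adjusted p = 0.76) and 0.16 (adjusted p = 0.18). The WT call was also lost without WT clone 3 (0.26, adjusted p = 0.064).

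Rc3h2 (ENSMUSG00000075376; chromosome 2, 37370069 to 37422903, minus strand) stood at 114, 113 and 94.4 CPM in medium and at 171, 180 and 185 CPM under stimulation in WT clones. In KO clones it stood at 120, 119 and 121 CPM and at 218, 209 and 202 CPM. Its log2 fold change was 0.74 ± 0.09 in WT (edgeR adjusted p = 8.5e-05) and 0.81 ± 0.09 in KO clones (adjusted p = 3.5e-05). N4bp1 (ENSMUSG00000031652; chromosome 8, 86808160 to 86885258, minus strand) went from 54.7, 46.5 and 55.6 CPM to 88.4, 83.3 and 92.3 CPM in WT clones and from 55.4, 57.9 and 49.3 CPM to 86.9, 78.8 and 89.8 CPM in KO clones. Its log2 fold change was 0.75 ± 0.10 in WT (adjusted p = 0.00018) and 0.65 ± 0.10 in KO clones (adjusted p = 0.00035). The treatment groups of both genes were apart in each genotype. With library totals their calls were kept at lower values, 0.38 and 0.43 for Rc3h2 and 0.39 and 0.27 for N4bp1. The N4bp1 call in KO clones was then close to the threshold (edgeR adjusted p = 0.047).

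**Figure D3:**
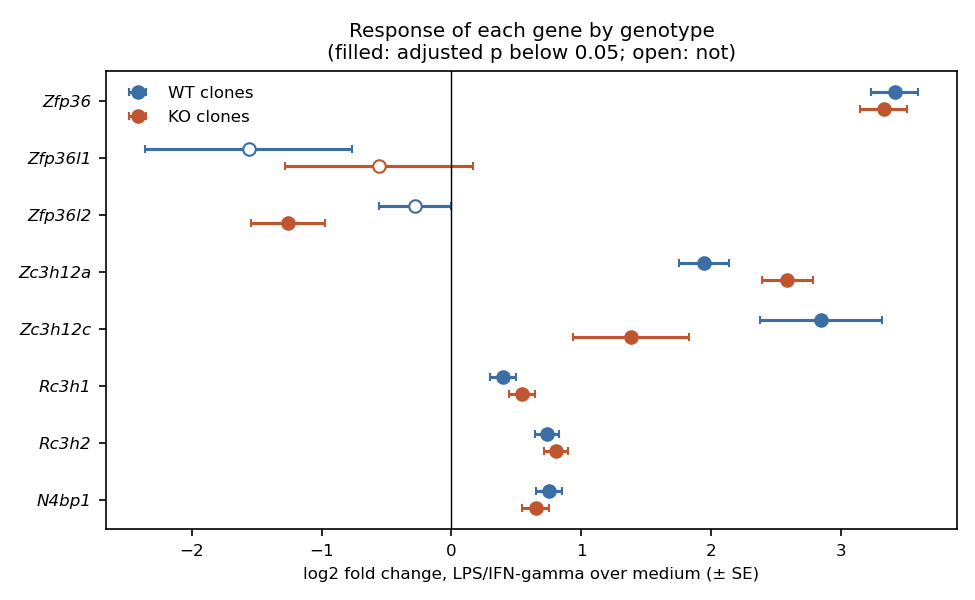
Log2 fold change (± SE) of each gene under LPS/IFN-gamma in WT (blue) and KO clones (orange). Filled points passed an adjusted p of 0.05 and open points did not. Values run from -1.56 for Zfp36l1 in WT clones to 3.42 for Zfp36 in WT clones.

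Stimulation changed the order of the genes. Levels between genes are given as CPM per kb of merged exons of protein-coding transcripts, mean ± SD over 3 libraries. In WT clones in medium Zfp36l2 (14.4 ± 4.32), Rc3h1 (12.1 ± 1.47), Rc3h2 (11.9 ± 1.24), Zc3h12c (9.85 ± 3.07) and N4bp1 (8.08 ± 0.774) came first, and each overlapped with the next. Zfp36 (4.66 ± 0.941), Zc3h12a (2.92 ± 0.392) and Zfp36l1 (0.814 ± 0.480) followed without overlap.

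Under stimulation in WT clones the highest levels per kb were those of Zc3h12c (70.9 ± 53.9) and Zfp36 (49.8 ± 7.92), which overlapped. Below them stood Rc3h2 (19.9 ± 0.773), Rc3h1 (15.9 ± 1.21), N4bp1 (13.6 ± 0.694), Zfp36l2 (11.9 ± 4.19) and Zc3h12a (11.3 ± 1.37), and then Zfp36l1 (0.272 ± 0.306). Of these N4bp1 overlapped with Zfp36l2, and Zfp36l2 with Zc3h12a. Regnase-1 transcript stood below Regnase-3 transcript in both WT groups.

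In KO clones in medium the order per kb was Rc3h2 (13.4 ± 0.106), Rc3h1 (13.0 ± 0.0844), Zfp36l2 (11.9 ± 0.574), N4bp1 (8.38 ± 0.684), Zc3h12c (5.77 ± 0.111), Zfp36 (4.43 ± 0.472), Zc3h12a (2.15 ± 0.358) and Zfp36l1 (1.27 ± 0.350), with no overlap between neighbours. Under stimulation Zfp36 (44.6 ± 5.17) stood alone at the top, above Rc3h2 (23.4 ± 0.936) and Rc3h1 (18.9 ± 0.592). Zc3h12c (15.0 ± 2.95) came next and overlapped with Rc3h1 and N4bp1 (13.2 ± 0.883). Zc3h12a (12.9 ± 2.84) overlapped with N4bp1, and Zfp36l2 (4.95 ± 0.891) and Zfp36l1 (0.865 ± 0.258) came last.

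The question of whether the NRE1 deletion moved these genes was first asked in medium. None of the 8 was called between KO and WT clones in medium by edgeR, where 1.21% of all genes were called (0.352% higher and 0.858% lower). None was called by DESeq2, which called 618 genes. At an unadjusted edgeR p below 0.05 there were 1720 of all 12231 genes and 1 of the 8, Zc3h12a. It stood at 8.05 ± 1.08 CPM in WT and 5.92 ± 0.987 CPM in KO clones (SD, n = 3). Its log2 difference was -0.44 ± 0.19 (edgeR adjusted p = 0.33). Zc3h12c stood at 67.45 ± 20.99 CPM in WT and 39.5 ± 0.758 CPM in KO clones (-0.77 ± 0.44, adjusted p = 0.49). Zc3h12a and Zc3h12c did not overlap between the genotypes with KO lower (11.4% of all genes), and Rc3h2 did not with KO higher (9.5% of all genes).

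Under stimulation 2 of the 8 genes were called between the genotypes, both lower in KO clones, where 4.64% of all genes were called and 3.51% were lower. Zc3h12c stood at 485 ± 369 CPM in WT and 103 ± 20.2 CPM in KO clones (log2 difference -2.24 ± 0.46, edgeR adjusted p = 0.025). Zfp36l2 stood at 42.01 ± 14.79 CPM in WT and 17.5 ± 3.15 CPM in KO clones (-1.26 ± 0.29, adjusted p = 0.035). For both genes no KO library reached a WT library (12.7% of all genes were lower without overlap). These calls rest on 3 KO clones. With 1A and 1B summed the adjusted p was 0.18 for each gene at log2 differences of -2.16 and -1.32. Leaving out a KO clone gave adjusted p of 0.073 to 0.21 for Zc3h12c and of 0.13 to 0.23 for Zfp36l2. Without WT clone 2 the Zc3h12c difference was -1.41 (adjusted p = 0.0071), and Zfp36l2 lost its call (-1.03, adjusted p = 0.086).

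The other 6 genes were not called under stimulation. Rc3h1 and Rc3h2 stood above WT in KO clones without overlap (11.3% of all genes), at log2 differences of 0.25 ± 0.10 and 0.23 ± 0.09 (edgeR adjusted p = 0.17 for both). Zfp36 differed by -0.16 ± 0.16, Zc3h12a by 0.20 ± 0.18, N4bp1 by -0.05 ± 0.10 and Zfp36l1 by 1.65 ± 0.81, with adjusted p of 0.62, 0.58, 0.84 and 0.27.

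A difference of the response by genotype was not called for any of the 8 genes by edgeR, by DESeq2 or under the clone block. Over all 12231 genes edgeR called 0 (0.0%), DESeq2 28 and the block 40, and 611 had an unadjusted p below 0.05. Among the 8 genes 3 had an unadjusted p below 0.05. The response of Zc3h12c was 1.46 ± 0.62 lower on the log2 scale in KO clones (a difference of -1.46, edgeR adjusted p = 0.97, and 0.16 under the clone block). That of Zfp36l2 differed by -0.98 ± 0.40 (0.94, and 0.43 with the block) and that of Zc3h12a by 0.64 ± 0.27 (0.95, and 0.26 with the block). The call of the Zfp36l2 response in 1 genotype was thus not backed by the test of the difference.

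The wider decay machinery was described by 4 lists, all of whose genes were tested, chosen with earlier results of these data known. Genes of each list moved in both directions, and the counts are to be read against the 23.8% of all genes that rose and 23.6% that fell in WT clones (26.7% and 27.6% in KO clones). Of 18 deadenylation genes 6 rose and 4 fell in WT clones and 5 rose and 4 fell in KO clones (list medians -0.11 and 0.00). The anti-proliferative CCR4-NOT adaptor gene Btg2 rose from 13.6 ± 4.12 to 71.2 ± 31.0 CPM in WT clones (log2 fold change 2.38 ± 0.32, edgeR adjusted p = 0.00017) and by 1.73 ± 0.31 in KO clones (adjusted p = 0.0008). Its relative Tob1 fell from 10.2 ± 2.06 to 3.51 ± 1.01 CPM in WT clones (-1.54 ± 0.22, adjusted p = 0.00025) and by 1.64 on the log2 scale in KO clones (adjusted p = 0.00011). The deadenylase subunit gene Cnot7 rose by 0.73 ± 0.09 and 0.72 ± 0.09 (adjusted p = 0.00012 and 9.6e-05).

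Of 19 decapping and 5′ to 3′ decay genes 5 rose and 2 fell in WT clones, and 5 rose and 3 fell in KO clones (medians 0.16 and 0.07). Xrn1, the 5′ to 3′ exonuclease gene, rose from 57.5 ± 8.50 to 179 ± 14.4 CPM in WT clones (1.64 ± 0.12, edgeR adjusted p = 2.8e-06) and from 46.2 ± 3.87 to 154 ± 0.362 CPM in KO clones (1.74 ± 0.12, adjusted p = 1.4e-06). The decapping activator gene Dcp1a rose by 0.78 ± 0.11 and 0.63 ± 0.11, and Lsm1 by 0.31 ± 0.07 and 0.47 ± 0.07.

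Of 17 exosome and SKI complex genes, which serve 3′ to 5′ decay, 3 rose and 5 fell in WT clones, and 3 rose and 4 fell in KO clones (medians -0.10 and -0.03). Exosc5 fell by 0.49 and by 0.56 on the log2 scale in WT and KO clones (edgeR adjusted p = 0.009 and 0.0034), while Mphosph6 rose by 0.58 ± 0.14 and 0.75 ± 0.14 and Ttc37 by 0.47 ± 0.11 and 0.53 ± 0.11. Of 11 other proteins that bind AU-rich or other 3′ untranslated elements, 3 rose and 2 fell in WT clones, and 4 rose and 2 fell in KO clones (medians 0.10 and 0.28). With library totals the WT counts were 4 higher and 12 lower for deadenylation, 2 and 4 for decapping, 0 and 12 for the exosome and 1 and 5 for the other binding proteins. The KO counts were then 4 and 11, 2 and 7, 0 and 12, and 1 and 4, so that the directions of these lists depend on the scaling. The clone block called more of all 12231 genes, 7485 in WT and 8082 in KO clones, against 5796 and 6638 in the main fit. Under the block the other binding proteins counted 4 higher and 3 lower in WT and 6 and 3 in KO clones. Hnrnpdl (higher) and Khsrp (lower) were added in both genotypes and Hnrnpab (higher) in KO clones. The deadenylation genes then counted 6 higher and 6 lower in WT clones, with Cnot1 and Cnot3 added as lower, and 6 higher and 5 lower in KO clones.

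Arid5a stood apart among them. It encodes a protein that stabilises Il6 mRNA and counters Regnase-1. It rose from 1.39 ± 0.303 to 70.1 ± 25.5 CPM in WT clones (5.65 ± 0.31, edgeR adjusted p = 4.8e-07) and from 0.800 ± 0.295 to 65.5 ± 7.79 CPM in KO clones (6.31 ± 0.33, adjusted p = 3.1e-07). The stress granule protein genes Tial1 and Tia1 fell by 0.71 and 0.46 on the log2 scale in WT clones (adjusted p = 0.002 and 0.0091) and by 0.45 and 0.64 in KO clones (adjusted p = 0.02 and 0.0011).

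Of 14 partners and regulators of the factors 13 were tested, and 6 rose and 4 fell in each genotype (medians 0.13 and 0.11; with library totals 5 and 6 in WT and 4 and 6 in KO clones). Mapk14, the p38 kinase gene upstream of Zfp36 phosphorylation, fell by 0.75 on the log2 scale in WT and by 1.25 in KO clones (edgeR adjusted p = 0.0014 and 4e-05). Mapkapk2, a further kinase gene of this list, rose by 1.51 ± 0.20 in WT and 1.15 ± 0.20 in KO clones (edgeR adjusted p = 0.00014 and 0.0006). Bcl10, a partner of the protease Malt1 that cleaves Regnase-1 and Roquins, rose by 1.07 ± 0.14 and 1.33 ± 0.14 (adjusted p = 0.00011 and 2e-05), and the cap-binding protein gene Eif4e2 by 0.56 ± 0.07 and 0.65 ± 0.07 (adjusted p = 0.00015 and 3.9e-05). Malt1 itself rose in WT clones by 1.51 ± 0.46 (adjusted p = 0.021, and 0.065 under the clone block) and stood at -0.29 ± 0.46 in KO clones (adjusted p = 0.61).

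Among the machinery, paralog and partner lists 2 genes were called between genotypes, Malt1 under stimulation and Zc3h12d in both conditions. With the target transcripts below, 98 listed genes were tested. Of these 1 was called lower in KO clones in medium, and 2 were called higher and 2 lower under stimulation. Of all genes 4.64% were called under stimulation and 1.21% in medium. Under stimulation Malt1 stood at 128, 318 and 62.8 CPM in WT clones 1, 2 and 3 and at 32.1, 33.0 and 47.6 CPM in KO clones 1A, 1B and 2, highest in WT clone 2 as was Zc3h12c (-2.18, edgeR adjusted p = 0.032). Its call was lost in 5 of 11 alternatives, with 1A and 1B summed (adjusted p = 0.21), without any one of the KO clones and without WT clone 1. The other was Zc3h12d (Regnase-4), 1 of 2 paralogs tested of a list of 5, beside Khnyn. Neither was called for the response under TMM scaling, and with library totals Khnyn was called lower in each genotype. In medium Zc3h12d stood at 6.45, 13.5 and 4.29 CPM in WT clones and at 1.28, 1.49 and 1.89 CPM in KO clones (-2.37, adjusted p = 0.022; 0.2 with 1A and 1B summed, and lost without any one of the KO clones). Under stimulation it stood at 7.94, 9.73 and 6.46 CPM in WT and at 0.819, 1.27 and 0.657 CPM in KO clones (-3.11, adjusted p = 0.0047), a call that was lost without KO 1A (adjusted p = 0.077).

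**Figure D4:**
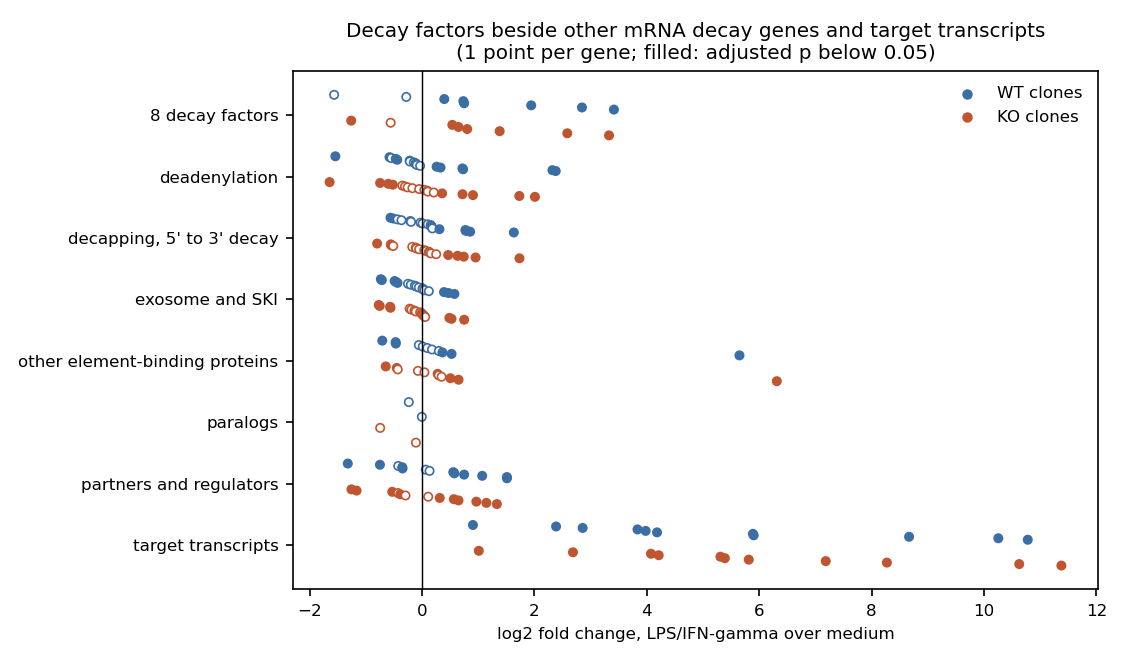
Log2 fold change under LPS/IFN-gamma in WT (blue) and KO clones (orange), with 1 point per gene, for the 8 factors, for 6 lists of other decay genes, paralogs and partners, and for published target transcripts. Filled points passed an adjusted p of 0.05, and 7 target genes were left out whose group totals fell to 3 counts or less. Target transcripts reach 11.38 (Il1a in KO clones), and Arid5a is the highest point of the machinery lists at 5.65 and 6.31.

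Most transcripts published as targets of these factors also rose under stimulation. Of 21 listed genes 18 were tested, and 17 rose in each genotype under TMM scaling and library totals, with none lower. Under TMM scaling 23.8% of all genes rose in WT and 26.7% in KO clones. The list was chosen with earlier results of these data known and holds many genes of the inflammatory response. Whether their rise bears on the decay factors was not tested. Csf2 was the gene not called in WT clones and Cxcl3 in KO clones, both with 0 counts in medium, and the clone block called both (adjusted p = 0.012 and 7e-05). Genes at 0 counts in medium give lower bounds, taken against 3 counts summed over the group, and with these the list median was 5.89 in WT and 6.08 in KO clones. Tnf, a target of tristetraprolin and Roquin, rose from 107.1 ± 20.03 to 1528 ± 177 CPM in WT clones and from 120 ± 17.4 to 2020 ± 271 CPM in KO clones. Ptgs2, which encodes the prostaglandin synthase COX-2, rose by 5.89 ± 0.33 and 5.39 ± 0.32 on the log2 scale (edgeR adjusted p = 4.9e-07 and 5.4e-07).

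Of these 18 targets 2 were called between genotypes, both higher in KO clones under stimulation (1.13% of all genes). Nfkbiz, the gene of the inhibitor-like protein IkB-zeta and a target of Regnase-1 and Roquin, stood at 151, 127 and 203 CPM in WT clones 1, 2 and 3 and at 812, 678 and 666 CPM in KO clones 1A, 1B and 2. The difference of 2.16 on the log2 scale (edgeR adjusted p = 0.00088) was called in each of 11 alternatives, with adjusted p from 4.8e-20 to 0.019. In medium it stood at 10.2 ± 2.17 CPM in WT and 18.1 ± 3.98 CPM in KO clones (adjusted p = 0.1). Lif, a cytokine gene, stood at 21.6, 23.6 and 11.3 CPM in WT and at 65.8, 42.7 and 111 CPM in KO clones under stimulation (1.96, adjusted p = 0.026). Its call was lost with 1A and 1B summed (adjusted p = 0.065), without any one of the KO clones and without WT clone 1. The response of Nfkbiz differed by 1.33 ± 0.30 (adjusted p = 0.59), and under the clone block the chemokine gene Ccl3 was the target called for a larger response in KO clones (1.59 ± 0.17, adjusted p = 0.017). Whether the lower Zc3h12c level bears on Nfkbiz or Lif was not tested.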

How the data were processed

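The authors deposited raw counts per Ensembl gene in 1 table for all 12 libraries of total RNA. Per the submitters' processing notes, the build was mm10 (GRCm38), and DESeq2 is listed there with no role. For the aligner, the counter and the use of strand the answer is not given in the sources used here. Positions, symbols and exon lengths came from GENCODE M21, which left 178 of the IDs unnamed, and promoter windows came from RefSeq (GRCm38.p6).

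Counts were tested with edgeR 4.0.16 in R 4.3.3. The function filterByExpr kept 12231 genes, libraries were scaled by TMM, and the robust quasi-likelihood model, with a mean for each group, left 8 residual degrees of freedom. Each SE is the log2 fold change over the root of its F statistic. CPM used TMM-scaled library totals. P-values of the main fit rest on the spread between clones within a group, estimated over the 4 groups together. Those of the fit blocked on clone rest on the spread left after each clone's mean. Counting floors cover counting error only.

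The labels give each clone 1 library per condition, which pairs libraries by clone. A clone's libraries deviated together from their group means in every case, with a correlation over genes of 0.62 to 0.70 in WT and 0.29 to 0.51 in KO clones. The highest correlation with another clone of the genotype was 0.27 for KO 1A, against 0.32 with its own. For KO 1B it was 0.18 against 0.29, and for the other clones it was negative. Taking deviations from a mean of 3 libraries itself lowers the correlations with other clones, so their sign carries no separate weight. A fit blocked on clone, with 4 residual degrees of freedom, was an alternative. Others were RLE factors, library totals, DESeq2 1.42.0, no filter, leaving out each clone and KO 1A and 1B summed.

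The 8 genes, the companion lists and the tests were chosen with earlier results of these data known. Mapkapk2 was named beside Mapk14 after its values were seen. All 8 genes were named in each comparison, with up to 3 genes per companion list by the smallest p in a response, every companion gene called between genotypes or, for the block, chosen after its values were seen, and the 3 nearest profiles of each gene, of which 1 is not reported here.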

Additional observations from a re-analysis of the deposited data

How the results depend on the processing

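Log2 fold changes of the 8 genes were recomputed under 12 alternatives, 464 values in all. Of these 437 kept their direction and their side of the threshold, 17 lost a call, 2 gained one (Zfp36l1 in WT clones) and 8 changed sign, none of them called. All sign changes came from leaving out a clone. The values then ranged from -0.5888 to 0.075 for Zfp36l2 in the WT response, from -0.2204 to 0.0698 for Zfp36 and from -0.0283 to 0.12 for N4bp1 between genotypes in medium, and from -0.0874 to 0.0061 for N4bp1 under stimulation. In the difference of the responses they ranged from -0.238 to 0.12 for Zfp36 (0.0414 without KO 1B), from -0.0078 to 0.1769 for Rc3h2 and from -0.2042 to 0.0038 for N4bp1. Under stimulation the count of 2 genes called between genotypes became 0 with KO 1A and 1B summed and 0 to 2 with a clone left out, 0 without any one of the KO clones and 1 without WT clone 2. The smaller fits hold fewer libraries. With the replicate block, 7 genes were called in each response, and no call of the 8 genes changed other than that of Zfp36l1. The block also called more of all genes, 7485 in WT and 8082 in KO clones, against 5796 and 6638 in the main fit. Depth limits Zfp36l1, at no more than 64 counts per library.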

Other observations

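For each of the 8 genes the profile over the 12 libraries, as log2 CPM centred on the gene's mean, was set beside those of 10804 other protein-coding genes. Among the nearest to Zfp36 by root mean square difference were Rnf19b (0.25) and Samhd1 (0.27). Nearest to Zc3h12a were Osgin2 (0.19), Mvp (0.20) and the NF-kB subunit gene Nfkb1 (0.21). Zc3h12c had no neighbour as close. Its nearest were the integrin chain gene Itgb2 (0.41), Cemip2 (0.45) and Adamts4 (0.48).

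Nearest to Zfp36l2 were F8a (0.23), F8 (0.28) and Slc36a1 (0.28), and nearest to Zfp36l1 were Tgif2 (0.53), Dmpk (0.54) and Slco4a1 (0.61). Rc3h1 stood closest to Ube3a (0.07), Mbd5 (0.07) and the nonsense-mediated decay kinase gene Smg1 (0.08), Rc3h2 to Rbm18 (0.09), Rlim (0.09) and Rab22a (0.10), and N4bp1 to Rap1gds1 (0.07), Usp47 (0.07) and Ybx3 (0.08). The spread of a profile sets how close a neighbour can be, with SDs from 0.27 for Rc3h1 to 1.69 for Zfp36 on the log2 scale.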
